A study of Danio rerio with 9 samples.

Results

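Sorted zebrafish Müller glia were compared before and after a light lesion in libraries chosen for their level of per1b, a gene of the circadian clock. Libraries were chosen by measured per1b: of the 6 lesioned libraries of the series, 3 had at least 500 counts of per1b per 1000000 counts of the library (CPM) and were pooled. They are 8 hours post lesion (hpl) replicate 2 and 16 hpl replicates 1 and 3, called the per1b-high libraries below. They were set against the 3 unlesioned libraries (0 hpl replicates 1, 2 and 3), so that the comparison uses 6 of the 9 libraries. On the scale that chose them, per1b stood at 1344 CPM in 8 hpl replicate 2, 1247 CPM in 16 hpl replicate 1 and 1589 CPM in 16 hpl replicate 3. The other lesioned libraries, 8 hpl replicates 1 and 3 and 16 hpl replicate 2, had 179, 193 and 364 CPM and are called per1b-low. The library just inside the threshold was thus 16 hpl replicate 1 and the one just outside it 16 hpl replicate 2. The unlesioned libraries had 993, 1196 and 579 CPM.

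All fish were of the line Tg(gfap:EGFP)mi2002, in which the promoter of gfap, a gene of glial filaments, drives green fluorescent protein, and were 8 to 11 months old. Lesioned fish swam freely under light of more than 120000 lux for 30 min and their retinas were taken 8 or 16 h after the lesion, and control fish had no lesion. Neural retinas were dissociated, green cells were sorted, and RNA with an integrity number above 7.0 went into stranded libraries, each read from 1 end in its own lane. Total expected counts of the 6 libraries ran from 11714633 in 16 hpl replicate 3 to 24215972 in 8 hpl replicate 2, and 19035 of 33737 genes passed the filter on low counts. Nothing in the labels says that the libraries came from separate fish or pools, so p-values measure only how these samples vary, and that variation may be technical. No unlesioned fish taken 8 or 16 h later is among the samples, so the lesion, the bright light itself and the hour of collection cannot be told apart. The per1b-high group also joins both times after the lesion, with 1 library at 8 hpl.

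Müller glia are the radial glia of the retina, and in zebrafish they re-enter the cell cycle after injury and give rise to new neurons. Zebrafish cells carry clocks that light can reset directly. In the clock, Clock and Bmal (Arntl) proteins drive the Period, Cryptochrome and bHLH repressor genes, whose products then inhibit them, while Ror and Rev-erb (Nr1d) receptors act on bmal genes and the PAR bZIP factors Dbp, Tef and Hlf carry the rhythm to other genes. Light raises per2, some cryptochrome genes and the photolyase gene cry5 in zebrafish without the need for a full cycle.

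The chosen libraries did not match the unlesioned ones in their clock genes. CPM from here on are scaled with TMM (trimmed mean of M-values) factors, and 3 values in a row follow the order 0 hpl replicates 1, 2 and 3, or 8 hpl replicate 2 and 16 hpl replicates 1 and 3, or, for the per1b-low libraries, 8 hpl replicates 1 and 3 and 16 hpl replicate 2. Since per1b chose the libraries, clock and light-responsive genes are described here by their values, and no p-value is given for them. They stayed in the fit over all genes, so the counts of genes called below may include them. Of 53 such genes detected, 33 stood higher in all 3 per1b-high libraries than in every 0 hpl library, 6 stood lower in all 3, and 14 overlapped. Values did not overlap for 73.6% of these genes, against 27.5% of all genes tested (14.1% with the lesioned libraries above and 13.4% below), and nothing is read from that gap because the rule used the same contrast. per1b itself was above every 0 hpl library in each per1b-high library. The libraries are therefore named here by the rule and not by a clock phase. P-values given below for other genes hold only for the libraries as chosen, also where a gene follows per1b across the libraries.

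Among the clock repressors, bhlhe40, which encodes a bHLH repressor, stood at 1652, 1769 and 1295 CPM at 0 hpl and 4199, 4124 and 4129 CPM in the per1b-high libraries. Its per1b-low values were 742, 784 and 947 CPM, so the 0 hpl libraries lay between both lesioned sets. The Period gene per1a had 256, 312 and 148 CPM at 0 hpl, 537, 531 and 664 CPM in the per1b-high and 24.3, 22.6 and 96.5 CPM in the per1b-low libraries, in the same order. The Cryptochrome gene cry2b, which may share reads with cry2a, had 58.1, 71 and 107, 647, 483 and 580.2 and 817, 780.1 and 229 CPM, and both lesioned sets lay above 0 hpl. per2, the light-induced Period gene, had 11.6, 21.6 and 42.5 CPM at 0 hpl and 278, 81.4 and 108 CPM in the per1b-high libraries, highest at 8 hpl. It was higher again in the per1b-low libraries, at 809, 835 and 246 CPM. per3 overlapped 0 hpl, with 205, 233 and 191 against 259.8, 206 and 257 CPM.

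The widest gap belonged to the Rev-erb receptor gene nr1d4a, at 9.15, 11.65 and 7.36 CPM at 0 hpl and 221, 261 and 302 CPM in the per1b-high libraries. The per1b-low libraries had 3.23, 2.34 and 3.68 CPM, below every 0 hpl value. Its paralog nr1d4b went from 27.9, 26.56 and 19.9 to 226, 291 and 260.1 CPM. The PAR bZIP gene dbpb had 379, 353 and 184 and 675, 886 and 799 CPM, while hlfa of the same family overlapped at 904, 1037 and 888 and 898, 869 and 829 CPM.

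On the activator side, bmal2 stood at 3.89, 2.85 and 1.81 CPM at 0 hpl, 20.1, 20.9 and 27.6 CPM in the per1b-high and 1.98, 3.1 and 1.24 CPM in the per1b-low libraries. The per1b-high libraries were the only ones of the 9 above 4 CPM for this gene. arntl1a, another bmal gene, was highest in the per1b-low libraries, with 8.18, 7.7 and 8.53, 14.7, 15.8 and 13 and 123, 126 and 43.2 CPM in the 3 sets. The receptor gene roraa, an activator of bmal genes, was lower in all per1b-high libraries, at 57, 66.7 and 53.6 against 17.7, 21.9 and 23 CPM. For rorca the 0 hpl libraries differed among themselves, with 31.2, 40.3 and 165 CPM, and the per1b-high libraries had 27.2, 17.2 and 15.12 CPM. The photolyase gene cry5 had 2.4, 2.4 and 1.97 CPM at 0 hpl, 34.5, 16.3 and 16.6 CPM in the per1b-high libraries and 113, 128 and 26.7 CPM in the per1b-low ones. Among the 33 genes that stood above 0 hpl in the per1b-high libraries, the per1b-low libraries were also above 0 hpl for 13, below for 10 and overlapping for 10.

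**Figure D1:**
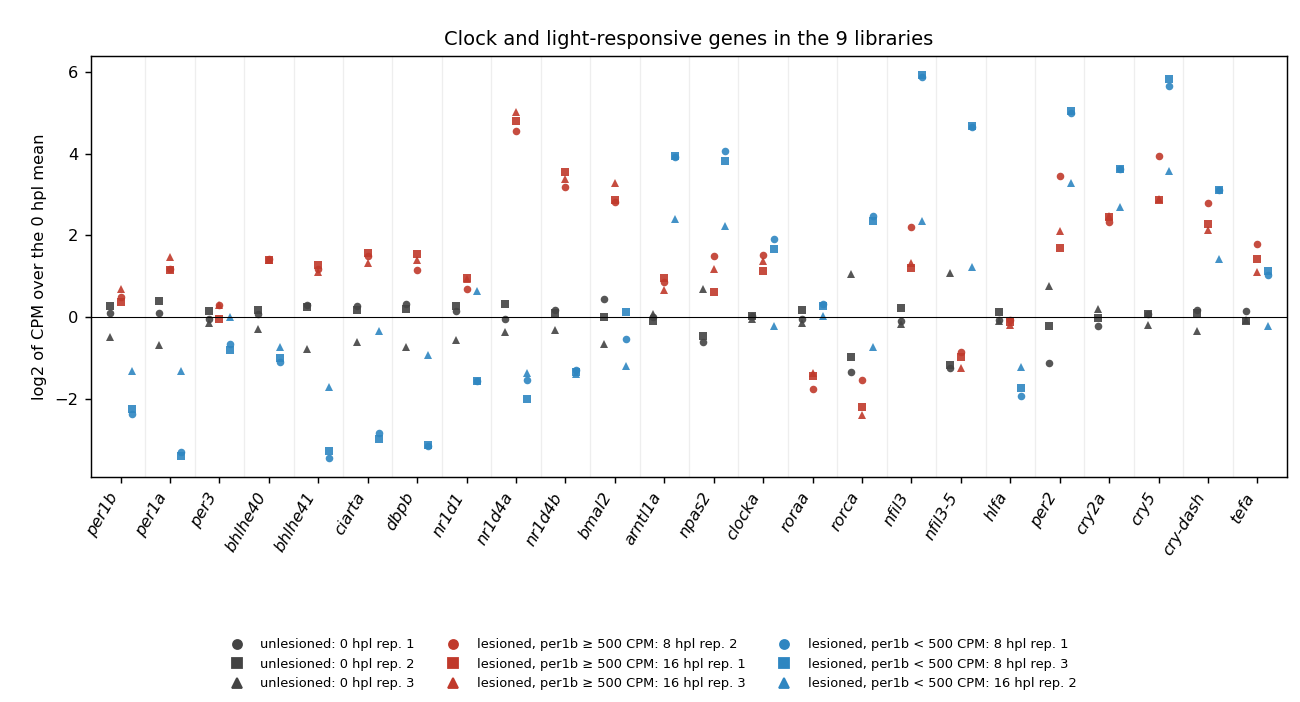
Clock and light-responsive genes in the 9 libraries, as log2 of TMM-scaled CPM over the mean of the 0 hpl libraries (y axis), 1 column a gene. Points are libraries (grey, 0 hpl; red, per1b-high; blue, per1b-low), and circle, square and triangle follow the order of libraries within each set given in the text. The red points of nr1d4a, nr1d4b and bmal2 lie above all others while those of per3 and hlfa overlap in range with the grey ones.

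Of the 19035 genes tested, 1506 (7.91%) differed between the per1b-high and the 0 hpl libraries at an adjusted p under 0.05, 866 higher (4.55%) and 640 lower (3.36%) after the lesion. Clock and light-responsive genes were not taken out of these counts. Before adjustment, 4193 genes had a p under 0.05. The median log2 fold change was 1.12 among the rises, −0.94 among the falls and 0.00 over all genes tested, and the smallest called change was 0.48. Genes of cytokine signalling through Jak and Stat3, C6 and C7 genes of complement, Gadd45 stress genes and heme-handling genes were among the rises. Cone photoreceptor genes were among the falls, as given by group below. Each group count below stands against these shares of all genes tested, 4.55% higher and 3.36% lower. The DESeq2 Wald test called 2190 of 17187 genes, 1248 higher and 942 lower. The count depended on the libraries and was 722 without 0 hpl replicate 1, 981 without 0 hpl replicate 2 and 877 without 16 hpl replicate 3. With the per1b-low libraries added, 348 genes were called for all 6 lesioned libraries, and 339 of them were among the 1506.

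**Figure D2:**
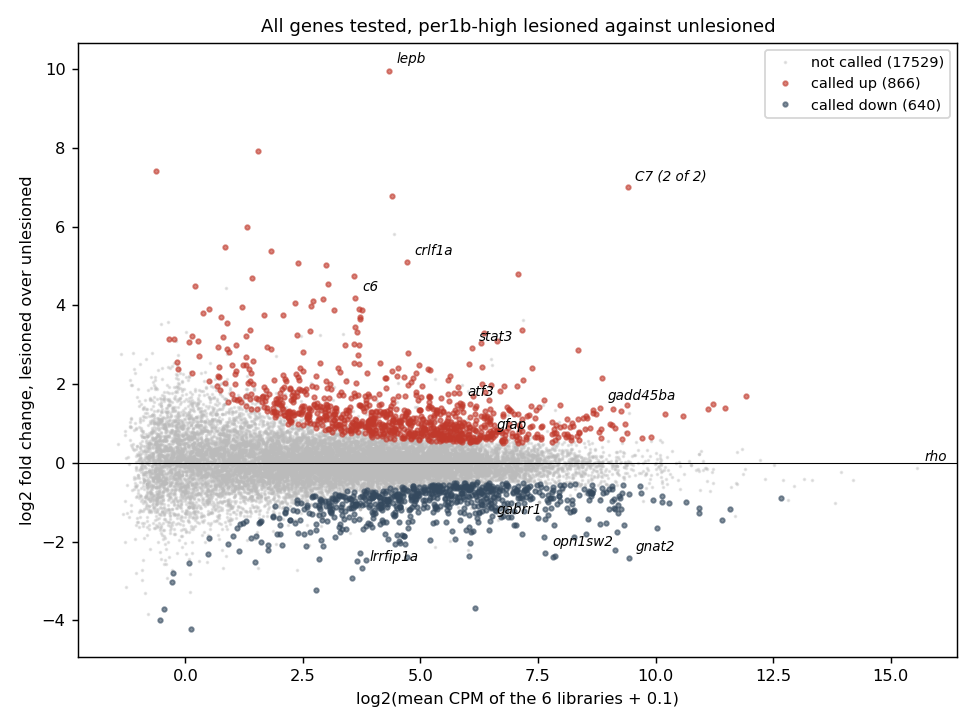
Log2 fold change of the per1b-high over the 0 hpl libraries (y axis) against log2 of the mean CPM of the 6 libraries plus 0.1 (x axis) for the 19035 genes tested. Red points are the 866 rises, dark points the 640 falls and grey points genes not called, and lepb and C7 (2 of 2) carry the largest labelled rises.

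The 12 largest rises with at least 5 CPM on average, non-overlapping libraries and a gene name were lepb, C7 (2 of 2), crlf1a, c6, wdr76, adam8a, ctgfa, crtac1a, fam213b, fam101b, plod2 and dhrs12. fam101b (ENSDARG00000093931), whose product binds filamin and acts on the actin cytoskeleton, had 2.4, 2.09 and 1.28 CPM at 0 hpl and 25.2, 25.7 and 21.8 CPM in the per1b-high libraries. The lesioned libraries lay close together and far above the unlesioned ones, with a log2 fold change of 3.65 ± 0.26 (SE; adjusted p = 1.45e-05). plod2, for an enzyme that hydroxylates collagen lysines, had 1.77, 1.29 and 0.267 and 8.54, 16 and 9.28 CPM (log2 fold change 3.34, adjusted p = 0.00389), with its highest value in 16 hpl replicate 1. adam8a, for a membrane metalloprotease, had 0.572, 0.801 and 0.693 and 5.38, 16.9 and 14.2 CPM (log2 fold change 4.12, adjusted p = 0.000294), and was lowest among the lesioned libraries at 8 hpl.

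dhrs12, for a short-chain dehydrogenase, rose from 17.3, 14 and 13.9 to 205, 143 and 98.9 CPM (log2 fold change 3.31, adjusted p = 5.22e-05). crtac1a, for a secreted matrix protein first known from cartilage, rose from 2.52, 1.29 and 1.07 to 21.8, 24.1 and 26.7 CPM (log2 fold change 3.9, adjusted p = 2.86e-05). fam213b, for a prostaglandin F synthase of the peroxiredoxin-like family, rose from 2.29, 1.56 and 1.81 to 23.9, 29.8 and 19.2 CPM (log2 fold change 3.7, adjusted p = 1.45e-05). Both crtac1a and fam213b were higher still in the per1b-low libraries at 8 hpl, and over all 3 per1b-low libraries crtac1a had 335, 354 and 79.1 CPM and fam213b 168, 178 and 38.1 CPM. wdr76, a gene of a WD repeat protein, had 1.03, 0.712 and 0.64 CPM at 0 hpl and 27.4, 9.92 and 5.36 CPM in the per1b-high libraries, with the 8 hpl library highest (log2 fold change 4.17, adjusted p = 0.00679).

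**Figure D3:**
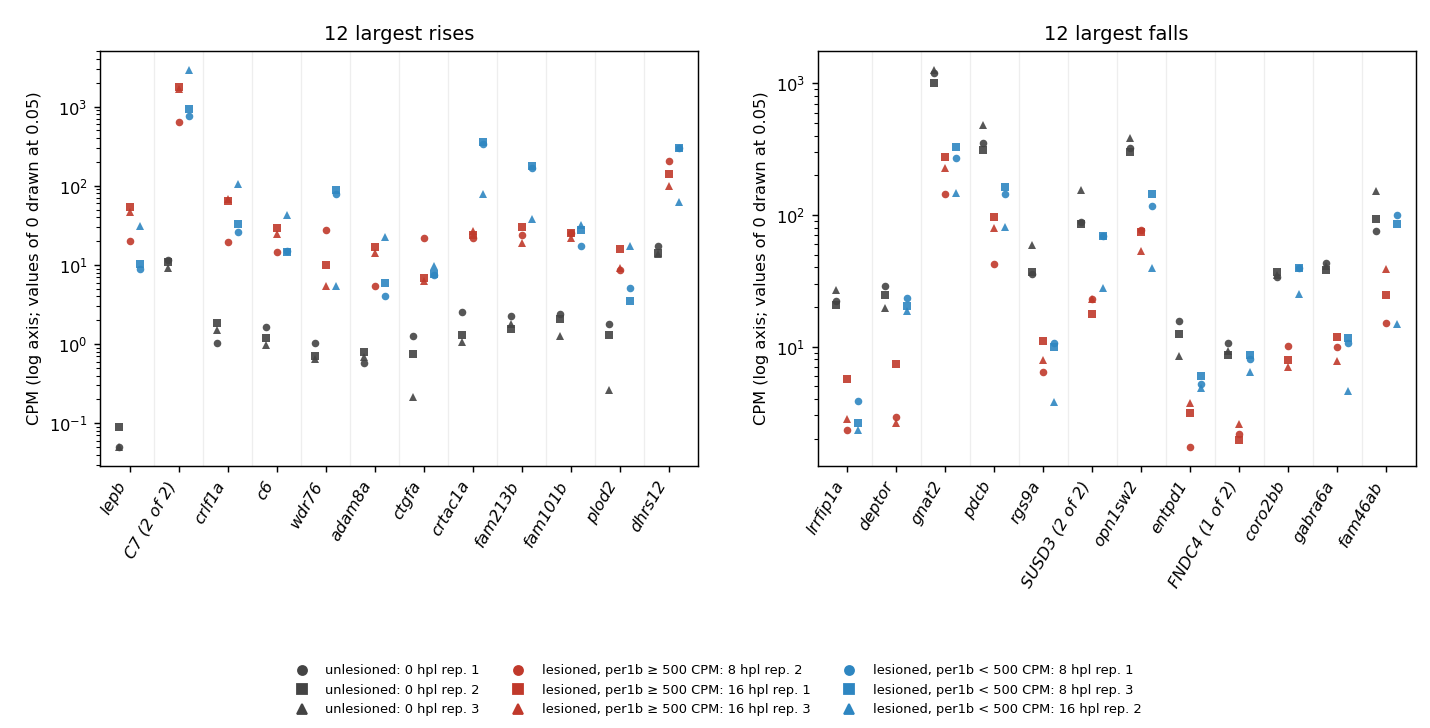
CPM on a log axis of the 12 largest rises (left) and the 12 largest falls (right) in the 9 libraries, with 0 drawn at 0.05. Grey points are 0 hpl, red per1b-high and blue per1b-low libraries; red and grey points do not overlap for any of these genes, and the blue points of deptor and coro2bb lie near the grey ones.

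In interleukin-6 family signalling, cytokine receptors activate Jak kinases and the transcription factor Stat3, and Socs proteins damp the signal. Of 31 such genes in the table, 28 passed the filter, 10 rose and 1 fell, against 4.55% and 3.36% of all genes tested, with a median log2 fold change of 0.86 against 0.00 over all genes. Among the ligands, lepb (ENSDARG00000045548), for one of the zebrafish leptin hormones, had 0, 0.089 and 0 CPM at 0 hpl and 19.8, 53.8 and 46.8 CPM in the per1b-high libraries. Every lesioned library was far above the unlesioned ones, and 8 hpl was lowest. lepb passed the filter on low counts only through the lesioned libraries, so it could enter the group's count only as a rise. With 2 counts at 0 hpl and 2328 in the per1b-high libraries, the ratio per library size was 1200.5, with an exact 95% interval of 332 to 9919 that covers counting error only (adjusted p = 0.000101). Per length, lepb reached 95.4 ± 43.2 FPKM (the authors' length-normalised level; SD, n = 3) in the per1b-high libraries and the leptin receptor gene lepr 3.18 ± 0.415 FPKM. crlf1a, whose secreted product pairs with cytokines of that family, had 1.03, 1.87 and 1.49 CPM at 0 hpl and 19.7, 63.5 and 68.9 CPM after the lesion, again lowest at 8 hpl (log2 fold change 5.09 ± 0.56, adjusted p = 0.00217).

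Inside the cell, stat3 stood at 14.8, 16.9 and 15.9 CPM at 0 hpl and 46.8, 142 and 172 CPM in the per1b-high libraries. The 16 hpl libraries were far above the 8 hpl library, and all were above 0 hpl (log2 fold change 2.92 ± 0.48, adjusted p = 0.0162). This call was lost without any single 0 hpl library or without 16 hpl replicate 1 (adjusted p from 0.0562 to 0.0839). The kinase gene jak1 rose from 31.1, 30.03 and 33.8 to 73.7, 143 and 164 CPM (log2 fold change 2.01 ± 0.26, adjusted p = 0.00163). Of the feedback inhibitors, socs3b rose from 14.4, 16.2 and 9.49 to 37.3, 59.3 and 59.4 CPM (log2 fold change 1.96 ± 0.24, adjusted p = 0.000669) and socs2 from 22.1, 27 and 20.1 to 44.1, 62 and 70.01 CPM (log2 fold change 1.34, adjusted p = 0.00149). socs3a overlapped, with 55.6, 55 and 25.9 CPM at 0 hpl and 53.6, 92.4 and 98.8 CPM after the lesion (log2 fold change 0.84, adjusted p = 0.19). mvp, for the major vault protein, stood at 18.7, 21.6 and 25.3 CPM at 0 hpl and 64.1, 333 and 413 CPM in the per1b-high libraries. It lay just above the threshold (log2 fold change 3.63, adjusted p = 0.0519) and was called without 8 hpl replicate 2 (log2 fold change 4.1, adjusted p = 1.34e-07).

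Calls for the remaining genes of this group were each lost in more than 1 of the fits without a library. The feedback inhibitor gene cish rose by 1.93 on the log2 scale (adjusted p = 0.0183; 0.0664 to 0.0886 without any single 0 hpl library or 16 hpl replicate 3). The kinase gene pim3, a Stat3 target, had 49.1, 48.1 and 38.1 and 259, 115 and 109.5 CPM, highest at 8 hpl (adjusted p = 0.0139; 0.0572 without 0 hpl replicate 2 and 0.0575 without 0 hpl replicate 3). Receptor genes moved both ways. lepr rose by 0.88 on the log2 scale (adjusted p = 0.0444), lifrb, for a receptor of leukemia inhibitory factor, by 2.29 (0.047), and cntfr, for the receptor of ciliary neurotrophic factor, was the member that fell (−0.85, 0.034); each of these 3 calls held in only 1 of the 6 fits without a library. Over the group the number of rises was 5 without 0 hpl replicate 3, 6 without 0 hpl replicate 1 and 6 without 0 hpl replicate 2, and 5 of its 11 calls held whichever library was left out.

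Complement, a cascade of plasma proteins that ends in a membrane pore built from C5b, C6, C7, C8 and C9, rose in 4 of the 8 members that passed the filter, of 23 in the table. By edgeR's test 0 members fell, also at an unadjusted p under 0.05 and with DESeq2. The median log2 fold change of the 8 was 0.91. Of the pore genes, c5, c8a, c8g and c9 did not pass the filter, and c8b was tested and not called. C7 (2 of 2) (ENSDARG00000057121), for pore component C7, had 11.67, 10.9 and 9.23 CPM at 0 hpl and 631, 1748 and 1696 CPM in the per1b-high libraries. The unlesioned libraries were low and alike, and 8 hpl was the lowest of the lesioned ones (log2 fold change 7.00 ± 0.46, adjusted p = 0.000122). c6, for pore component C6, had 1.66, 1.2 and 0.96 CPM at 0 hpl and 14.7, 29.5 and 24.9 CPM after the lesion, without overlap (log2 fold change 4.18 ± 0.33, adjusted p = 3.02e-05). c7a, a further C7 gene, rose from 2.86, 2.54 and 1.49 to 6.42, 23.4 and 25.7 CPM (log2 fold change 3.00, adjusted p = 0.0126; 0.0639 without 0 hpl replicate 2). C4B, for the earlier component C4, rose by 1.52 on the log2 scale (adjusted p = 0.0155; 0.0733 without 0 hpl replicate 1, 0.0564 without 0 hpl replicate 3 and 0.0656 without 16 hpl replicate 1). Per length the per1b-high libraries held 656 ± 307 FPKM of C7 (2 of 2), 38.8 ± 11.4 FPKM of c6 and 7.53 ± 4.29 FPKM of c7a (SD, n = 3). C4B had 3.76 ± 0.502 FPKM at 0 hpl and 5.89 ± 0.759 FPKM in the per1b-high libraries, a smaller change than by counts. Reads of the C7 genes may be split uncertainly between copies.

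Of 21 tested NF-kB, cytokine and chemokine genes, of 26 in the table, 4 rose and 0 fell by edgeR's test (1 at an unadjusted p under 0.05 and 1 with DESeq2). The rises were ptgs2a and ptgs2b, for cyclooxygenases that make prostaglandins, tnfrsf1a, for a receptor of tumour necrosis factor, and cxcl18b, for a chemokine. ptgs2a had 13.6, 10.7 and 3.73 CPM at 0 hpl and 70.6, 46.7 and 41 CPM after the lesion (log2 fold change 2.5 ± 0.45, adjusted p = 0.0183; 0.0875 without 0 hpl replicate 2 and 0.0513 without 16 hpl replicate 1). cxcl18b had 4.58, 6.18 and 9.17 and 17, 65.6 and 56.2 CPM, with 8 hpl lowest (adjusted p = 0.0302). No call of this group held in all fits without 1 library. The number of rises was 0 without 0 hpl replicate 2, 1 without 0 hpl replicate 1, 1 without 16 hpl replicate 1, and 2 without 0 hpl replicate 3 or 16 hpl replicate 3.

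Interferon signalling genes rose in 4 of 18 tested members of 26 and fell in 0 by edgeR's test, by an unadjusted p under 0.05 or with DESeq2, with a median log2 fold change of 0.67. irf9, which encodes a transcription factor of the interferon response, had 12.1, 11.5 and 10.8 CPM at 0 hpl and 24.9, 83.8 and 72.1 CPM in the per1b-high libraries. All lesioned values were above the unlesioned ones, and 16 hpl was far above 8 hpl (log2 fold change 2.39 ± 0.43, adjusted p = 0.016; 0.0576 to 0.0886 without any single 0 hpl library or 16 hpl replicate 3). b2m, for the light chain of class I antigen-presenting molecules, and RSAD2, for the antiviral enzyme viperin, rose by 0.87 and 1.85 on the log2 scale (adjusted p = 0.0466 and 0.0471). The number of rises was 0 without either of 0 hpl replicates 1 and 2 or without 16 hpl replicate 3, 1 without 16 hpl replicate 1 and 2 without 0 hpl replicate 3, where other members of the list were called. Of the 4 calls 0 held in all 6 fits without a library.

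Stress genes of the Gadd45 family and of p53 signalling rose in 8 of 28 tested members of 30 and fell in 0 by edgeR's test (3 at an unadjusted p under 0.05 and 0 with DESeq2), although the list's median log2 fold change was 0.06. gadd45ba, of a family that responds to DNA damage and other stress, had 233, 242 and 270.5 CPM at 0 hpl and 688, 661 and 624 CPM after the lesion. Both groups were tight and apart (log2 fold change 1.4 ± 0.14, adjusted p = 0.000173). gadd45bb rose from 17.6, 18.3 and 9.76 to 45, 50.8 and 42.9 CPM (log2 fold change 1.6, adjusted p = 0.00129) and gadd45ga from 51.5, 44 and 53.5 to 109, 125 and 106 CPM (log2 fold change 1.19, adjusted p = 0.000471). cdkn1a, for the cell cycle inhibitor p21, rose from 9.61, 7.65 and 7.04 to 21.5, 35.3 and 34 CPM (log2 fold change 1.9 ± 0.23, adjusted p = 0.000471). In the per1b-low libraries cdkn1a stood at 4.68, 5.53 and 18.7 CPM, below 0 hpl at 8 hpl. Genes on both sides of the mitochondrial death pathway rose too: baxa and bbc3, which promote cell death, by 0.64 and 0.91 on the log2 scale (adjusted p = 0.0327 and 0.0465), the caspase gene casp9 by 0.85 (0.018), and bcl2l1, which opposes cell death, by 0.59 (0.0209). The last 4 calls were each lost without at least 3 of the libraries, one at a time, and the group's count was 4 without any single 0 hpl library and 5 without 16 hpl replicate 1.

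Of the immediate-early and AP-1 genes, transcription factors induced within minutes of many stimuli, 6 of 29 tested rose and 0 fell by edgeR's test (2 at an unadjusted p under 0.05 and 1 with DESeq2), with a median log2 fold change of 0.46. atf3 had 27.3, 30.2 and 30.8 CPM at 0 hpl and 83, 87.6 and 83.3 CPM in the per1b-high libraries, a narrow range in each group (log2 fold change 1.52 ± 0.14, adjusted p = 7.76e-05). fosl1a rose from 15.7, 19.7 and 10.7 to 30.3, 35 and 40.4 CPM (adjusted p = 0.00687) and cebpb from 11.3, 13.7 and 7.52 to 34.7, 19.9 and 25 CPM (adjusted p = 0.0105). jun, nr4a3 and atf4b rose by 0.76, 1.21 and 0.62 on the log2 scale (adjusted p = 0.0205, 0.0275 and 0.0279), and each call was lost without 0 hpl replicate 1 (0.114, 0.123 and 0.128), among others. The group's number of rises was 3 without either of 0 hpl replicates 1 and 2 or without 16 hpl replicate 3.

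Chaperone genes rose in 5 of 27 tested members of 29 by mostly small amounts, and 0 fell by edgeR's test (2 at an unadjusted p under 0.05 and 1 with DESeq2). hspd1, for the mitochondrial chaperonin, had 72.1, 64.4 and 84.2 CPM at 0 hpl and 121, 117 and 121 CPM after the lesion (log2 fold change 0.70, adjusted p = 0.0108), and its partner gene hspe1 38.2, 33.5 and 57.1 and 75.4, 81.9 and 61.5 CPM (adjusted p = 0.0348). bag3 and dnajb1b, cochaperone genes, rose by 0.75 and 0.56 on the log2 scale (adjusted p = 0.0344 and 0.0466). The small heat shock protein gene hspb11 had 0.172, 0.311 and 0.267 CPM at 0 hpl, 1.56, 1.12 and 1.36 CPM in the per1b-high libraries and 24, 32.5 and 5.83 CPM in the per1b-low libraries (adjusted p = 0.0415 for the former against 0 hpl, and over 0.05 whichever library was left out). hspb11 passed the filter on low counts only through the lesioned libraries, so it could enter the group's count only as a rise. The group's count was 0 without 0 hpl replicate 1 or 0 hpl replicate 2 and 1 without either 16 hpl library.

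Heme is made in mitochondria, carried by transporters and binding proteins, and broken down by heme oxygenase and biliverdin reductase. Of 19 tested genes of its handling, of 21 in the table, 7 rose and 0 fell by edgeR's test (2 at an unadjusted p under 0.05 and 0 with DESeq2), with a median log2 fold change of 0.42. blvra, for biliverdin reductase, had 0.515, 0.623 and 0.533 CPM at 0 hpl and 9.59, 5.26 and 8.08 CPM in the per1b-high libraries. The groups stood far apart (log2 fold change 3.76 ± 0.37, adjusted p = 0.000119). fech, for ferrochelatase, which inserts iron into the ring, rose from 7.55, 8.94 and 6.99 to 35.8, 18.8 and 25 CPM (log2 fold change 1.76, adjusted p = 0.00115). soul5, for a heme-binding protein of the SOUL family, had 0.286, 1.16 and 0.16 and 13.9, 8.1 and 6.08 CPM (log2 fold change 4.06, adjusted p = 0.00292), and hebp2 of the same family 12.5, 11.1 and 10.6 and 42.6, 23.1 and 22.6 CPM (adjusted p = 0.00564). In these genes 8 hpl replicate 2 had the highest value of the per1b-high libraries, and the per1b-low libraries at 8 hpl were higher than it, with 56.3, 49.8 and 11.9 CPM for blvra and 120.4, 118 and 9.32 CPM for soul5. hmbsa, an enzyme gene of heme synthesis, abcb6a, a porphyrin transporter gene, and hmox2a, for a heme oxygenase, rose by 1.52, 1.46 and 0.84 on the log2 scale (adjusted p = 0.0146, 0.028 and 0.0144), and each call was lost without at least 1 library, hmbsa without 0 hpl replicate 2 (0.0522) or 3 (0.0504), hmox2a without 0 hpl replicate 1 (0.0678), and abcb6a without any single 0 hpl library or 16 hpl replicate 3 (0.0509 to 0.109). soul5 would not have passed the filter on low counts from the 0 hpl libraries alone, so it could enter the group's count only as a rise. hmox1a, the inducible heme oxygenase gene, stood at 0.801, 1.47 and 1.87 and 4.05, 1.9 and 2.88 CPM and was not called (adjusted p = 0.181).

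Hippo signalling restrains the coactivator Yap, whose targets include ctgfa and ankrd1a. Of 12 such genes tested, 3 rose and 0 fell by edgeR's test, by an unadjusted p under 0.05 or with DESeq2, with a median log2 fold change of 0.56. yap1 had 9.32, 8.1 and 8.64 CPM at 0 hpl and 15.9, 18.9 and 19.9 CPM after the lesion, without overlap (log2 fold change 1.07 ± 0.19, adjusted p = 0.00566). ankrd1a, nearly silent at 0 hpl with 0.0572, 0.133 and 0 CPM, had 1.08, 4.22 and 4.64 CPM after the lesion (adjusted p = 0.0022), with 8 hpl lowest. ctgfa, for a matrix-associated growth factor binding protein, had 1.26, 0.756 and 0.213 and 22.1, 6.9 and 6.32 CPM, with 8 hpl highest (log2 fold change 3.99, adjusted p = 0.0119; 0.0783 without 0 hpl replicate 2). ankrd1a and ctgfa would not have passed the filter on low counts from the 0 hpl libraries alone. They could thus enter the count of this group only as rises. Of 19 matrix and protease genes tested of 21, 3 rose and 0 fell by edgeR's test (2 at an unadjusted p under 0.05 and 1 with DESeq2). Beside adam8a they were timp2a, for an inhibitor of matrix proteases, from 54.2, 57.5 and 45 to 79.8, 103 and 91.9 CPM (adjusted p = 0.00817), and adam8b, which rose by 0.96 on the log2 scale (adjusted p = 0.0378; 0.0998 to 0.173 without 0 hpl replicate 1 or 2 or either 16 hpl library). mmp9, for a matrix metalloprotease, had 1.43, 1.11 and 1.49 CPM at 0 hpl and 2.17, 17.9 and 18.6 CPM in the per1b-high libraries, and was called without 8 hpl replicate 2 (adjusted p = 6.82e-06) but not with it (0.0576).

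Genes linked to the turn of Müller glia into progenitors moved in both directions. Of 32 tested, of 38 in the table, 3 rose and 3 fell, with a median log2 fold change of −0.19. mych, of the Myc family, rose from 15.7, 17.1 and 13.7 to 38.9, 58.6 and 49.9 CPM (log2 fold change 1.66 ± 0.19, adjusted p = 0.00028). tgif1, for a homeobox repressor, rose from 5.55, 6.49 and 5.65 to 18.1, 21.1 and 19.1 CPM (log2 fold change 1.72 ± 0.20, adjusted p = 0.0003). hbegfa, for the growth factor Hb-egf, rose from 0.572, 0.623 and 1.17 to 4.17, 4.79 and 3.44 CPM (adjusted p = 0.00424). The falls were the retinal homeobox genes rx1 (−0.73, adjusted p = 0.0152; 0.0582 without 0 hpl replicate 2) and rx2 (−1.07, adjusted p = 0.0113; 0.0661 without 16 hpl replicate 3), on the log2 scale, and six7, described with the cone genes. Without 8 hpl replicate 2, 5 members rose. The proneural gene ascl1a stood at 5.38, 4.85 and 2.51 CPM at 0 hpl and 3.13, 9.01 and 7.28 CPM after the lesion and was not called (adjusted p = 0.437). lin28a, for an RNA-binding reprogramming factor, was below the filter, with 0 counts over the 0 hpl libraries and 83 over the per1b-high ones. With 3 counts put in place of the 0 the ratio per library size was 28.5. The exact 95% lower limit of the ratio from the counts themselves was 22.7.

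Müller glia marker genes were present in every library. Of 18 tested, 2 rose (11.1%, against 4.55% of all genes tested) and 0 fell by edgeR's test, while 6 rose and 1 fell with DESeq2 (6 and 2 at an unadjusted p under 0.05 in edgeR). gfap had 60.2, 59.9 and 84.4 CPM at 0 hpl and 96.8, 123 and 108 CPM in the per1b-high libraries (log2 fold change 0.68, adjusted p = 0.0281), without overlap. sox2, for a transcription factor of glia and progenitors, had 15, 15.17 and 14.5 and 17.5, 29 and 30.2 CPM (adjusted p = 0.0488). Neither call was firm: gfap was lost without 0 hpl replicate 1 (0.154), 0 hpl replicate 2 (0.112), 16 hpl replicate 1 (0.0759) or 16 hpl replicate 3 (0.0826), and sox2 held only without 8 hpl replicate 2. rlbp1a, for a retinoid-binding protein of Müller glia, overlapped at 433, 417 and 326 and 435, 299.6 and 259 CPM (adjusted p = 0.532). In the Notch pathway 1 of 27 tested members rose and 1 fell. The share called was 7.41%, near the 7.91% of all genes tested. The member that fell was hey1, a repressor gene that Notch induces, from 32, 32.5 and 26.5 to 12, 18.9 and 11.8 CPM (log2 fold change −1.09, adjusted p = 0.00855). The receptor gene notch2 rose by 1.26 on the log2 scale (adjusted p = 0.0251, held in only 1 of the 6 fits without a library). Without 0 hpl replicate 3 the Notch falls numbered 3, and without 8 hpl replicate 2 they numbered 2.

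The 12 largest falls by the same criteria were lrrfip1a, deptor, gnat2, pdcb, rgs9a, SUSD3 (2 of 2), opn1sw2, entpd1, FNDC4 (1 of 2), coro2bb, gabra6a and fam46ab. lrrfip1a (ENSDARG00000030012) had 22.1, 20.6 and 27 CPM at 0 hpl and 2.33, 5.65 and 2.8 CPM in the per1b-high libraries (log2 fold change −2.68 ± 0.31, adjusted p = 0.000403), and the per1b-low libraries were as low at 3.84, 2.61 and 2.34 CPM. deptor, for an inhibitor of the growth kinase mTOR, had 28.8, 24.5 and 19.8 and 2.93, 7.37 and 2.64 CPM (log2 fold change −2.47 ± 0.37, adjusted p = 0.00297). In the per1b-low libraries it was at 23.2, 20.3 and 18.6 CPM, near the unlesioned values. coro2bb, for an actin-binding coronin, had 33.8, 36.8 and 35.3 CPM at 0 hpl, 10.1, 7.98 and 6.96 CPM in the per1b-high libraries (log2 fold change −2.07, adjusted p = 7.97e-05) and 39.4, 39.8 and 24.9 CPM in the per1b-low ones. In the authors' deposited table, which gives 1 value for each time after the lesion, the log2 fold change of coro2bb was 0.09 at 8 hpl and −2.08 at 16 hpl. How each library counts toward these values is not stated. The value at 8 hpl does not describe 8 hpl replicate 2, which was at 10.1 CPM.

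SUSD3 (2 of 2), for a sushi domain membrane protein, fell from 88, 86 and 154 to 23.2, 17.7 and 22.9 CPM (adjusted p = 0.000188) and FNDC4 (1 of 2), for a secreted fibronectin type III domain protein, from 10.6, 8.63 and 9.23 to 2.17, 1.94 and 2.56 CPM (adjusted p = 0.000548). entpd1, for an enzyme that breaks down extracellular ATP, fell from 15.6, 12.4 and 8.43 to 1.72, 3.1 and 3.76 CPM (adjusted p = 0.00239). gabra6a, for a subunit of a GABA receptor, fell from 43.2, 38.4 and 41.1 to 9.87, 11.8 and 7.76 CPM (log2 fold change −2.05, adjusted p = 7.97e-05), without overlap. fam46ab, for a poly(A) polymerase family protein, had 75.4, 93.4 and 153 and 15, 24.8 and 38.8 CPM (adjusted p = 0.0226; 0.0698 without 0 hpl replicate 2 and 0.0923 without 16 hpl replicate 1). In the per1b-low libraries SUSD3 (2 of 2) had 69.1, 69.8 and 27.8 CPM, FNDC4 (1 of 2) 7.99, 8.64 and 6.4 CPM and fam46ab 99.3, 84.8 and 14.7 CPM. There entpd1 had 5.21, 5.94 and 4.83 CPM and gabra6a 10.7, 11.6 and 4.59 CPM.

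Cone photoreceptor genes made up the group with the most falls. All 25 in the table passed the filter, 14 fell and 0 rose by edgeR's test (18 and 0 at an unadjusted p under 0.05, 16 and 0 with DESeq2), against 3.36% of all genes called lower, with a median log2 fold change of −1.12, and 11 of the 14 calls held whichever library was left out. In phototransduction, light on an opsin activates transducin and then phosphodiesterase, and a cation channel closes. gnat2, for the cone transducin alpha subunit, had 1208, 1012 and 1267 CPM at 0 hpl and 145, 276 and 228 CPM in the per1b-high libraries. Every lesioned value was far below every unlesioned one, with 8 hpl lowest (log2 fold change −2.43 ± 0.23, adjusted p = 0.000105). The blue opsin gene opn1sw2 had 324, 301 and 381 and 77.1, 74.8 and 53.6 CPM (log2 fold change −2.29 ± 0.18, adjusted p = 2.86e-05). The channel subunit gene cnga3a had 103, 99.4 and 108 and 25.5, 30.3 and 36.6 CPM (log2 fold change −1.75 ± 0.16, adjusted p = 8.14e-05). six7, for a homeobox factor of zebrafish cones, had 98.1, 103 and 119.95 and 19.98, 43.5 and 33.1 CPM, again lowest at 8 hpl (log2 fold change −1.73 ± 0.25, adjusted p = 0.00201).

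Some genes whose products shut the response off were among these falls. rgs9a, for a protein that speeds GTP hydrolysis by transducin, had 35.6, 37.1 and 59.6 and 6.38, 11.1 and 7.92 CPM (log2 fold change −2.38, adjusted p = 0.000294), and the opsin kinase gene grk7a 292, 291 and 349.9 and 56.4, 99.6 and 96.8 CPM (adjusted p = 0.000299). arr3a, for a cone arrestin, had 657, 606 and 762 CPM at 0 hpl and 264, 228 and 196 CPM in the per1b-high libraries (log2 fold change −1.55 ± 0.17, adjusted p = 0.000213), but 1153, 1295 and 402 CPM in the per1b-low libraries, where both 8 hpl values exceeded every unlesioned one. The falls of gnb3b, guca1d, cnga3b, opn1mw2, rgs9b, guca1c and thrb were between −0.62 and −1.79 on the log2 scale. Of these, guca1c was lost without 0 hpl replicate 3 (0.0529) or 16 hpl replicate 3 (0.0694), rgs9b without 16 hpl replicate 3 (0.0526), and thrb held only without 16 hpl replicate 1. Reads of opn1mw2 and opn1mw3 cannot be assigned to 1 copy with certainty. pdcb, a phosducin gene whose product binds transducin subunits, lay outside the list and fell from 351, 309 and 484 to 42, 96.1 and 79.1 CPM (adjusted p = 0.00183).

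Of 17 rod genes tested, 4 fell and 1 rose (29.4% called, against 7.91% of all genes tested), with a median log2 fold change of −0.24. rho, for the rod opsin, was the most abundant of them and overlapped, at 39393, 41224 and 71949 CPM at 0 hpl and 58403, 34659 and 46571 CPM after the lesion (log2 fold change −0.13 ± 0.29, adjusted p = 0.856). The rod genes gnat1, pde6a and saga were not called either. prph2b, for a protein of the disc rims, fell from 655, 626 and 1051 to 345, 369 and 322 CPM (log2 fold change −1.17, adjusted p = 0.00383), and its paralog prph2a from 290.4, 249 and 304 to 96.6, 174 and 151 CPM (adjusted p = 0.0109; 0.0506 without 0 hpl replicate 1). rcv1, for the calcium sensor recoverin, and sagb, for a rod arrestin, fell by −0.85 and −1.14 on the log2 scale (adjusted p = 0.00949 and 0.0115), and without 16 hpl replicate 3, when the list had 2 falls, neither was called (0.0609 and 0.0760). nr2e3, for a nuclear receptor that sets rod identity, went the other way, from 1444, 1455 and 856 CPM at 0 hpl to 4095, 3329 and 3135 CPM (log2 fold change 1.49 ± 0.23, adjusted p = 0.00194). In the per1b-low libraries nr2e3 was at 121, 137 and 333 CPM, below every unlesioned library. The sets stood in the same order for per1b, which chose the libraries. It had 997, 1132 and 662 CPM at 0 hpl, 1306, 1210 and 1489 CPM in the per1b-high and 182, 196 and 373 CPM in the per1b-low libraries. The p-value of nr2e3 thus holds only for the libraries as chosen.

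Photoreceptor RNA in sorted glia was present throughout. In bulk samples fewer cells of a type and less RNA per cell cannot be told apart. The summed level of 4 cone markers (gnat2, arr3a, opn1sw1 and opn1lw2) was 2022 to 2666 CPM at 0 hpl and 769 to 903 CPM in the per1b-high libraries, and that of 5 rod markers 62852 to 105035 and 58893 to 85748 CPM. Of the cone markers, gnat2 and arr3a, both among the falls above, did not overlap. opn1sw1 overlapped, at 130, 100 and 130 and 78.5, 131 and 106 CPM. So did opn1lw2, at 396, 304 and 507 and 328, 268 and 239 CPM. The summed level of 4 Müller glia markers (gfap, rlbp1a, apoeb and cahz) was 945 to 1520 and 1563 to 1902 CPM. These markers did not move together: apoeb, for an apolipoprotein, went from 541, 504 and 176 CPM to 759, 1149 and 1049 CPM, while cahz, for a carbonic anhydrase, went from 486, 436 and 358 CPM to 272, 331 and 287 CPM, both without overlap. The summed level of 3 amacrine and horizontal cell markers was 490.2 to 668 CPM at 0 hpl and 355 to 439 CPM in the per1b-high libraries, also without overlap. Among them slc6a9 did not overlap, gad1b did, and lhx1a was at 2.08 CPM or less. The part of these sums in the cone result was not tested.

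**Figure D4:**
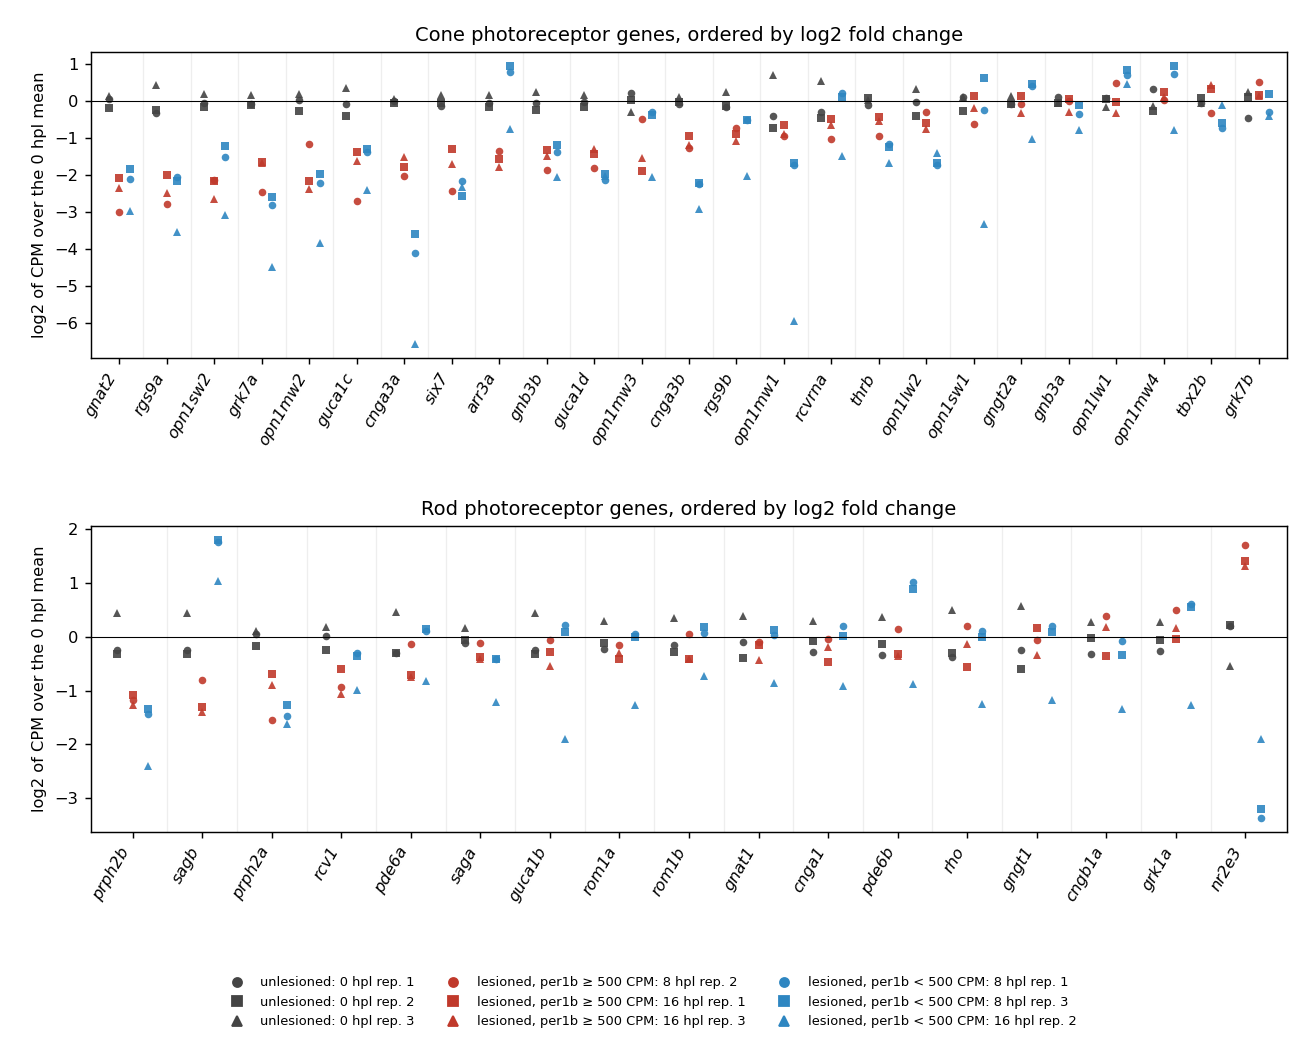
Cone (top) and rod (bottom) photoreceptor genes as log2 of CPM over the 0 hpl mean (y axis), 1 column a gene, ordered by log2 fold change. Red per1b-high points lie below the grey 0 hpl points for most cone genes at the left, while rho overlaps and nr2e3 lies above; blue points are per1b-low libraries.

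Genes of inner retinal neurons gave 4 falls and 2 rises among 30 tested, of 34 in the table, and DESeq2 called 8 falls. gabrr1, for a GABA receptor of bipolar cells, fell from 127, 141 and 124 to 37.7, 55.7 and 47.8 CPM (log2 fold change −1.47 ± 0.17, adjusted p = 0.000287), and the per1b-low libraries were similar at 40.5, 46.9 and 44.6 CPM. calb2b, for calretinin, fell from 139.8, 123 and 130.5 to 53.1, 57.7 and 43.7 CPM (log2 fold change −1.35, adjusted p = 0.000274) and pcp4a, for a calmodulin-binding peptide, from 109, 109.7 and 108 to 59.8, 68 and 57.1 CPM (adjusted p = 0.00324). nyx, for a protein of ON bipolar synapses, fell by 0.60 on the log2 scale (adjusted p = 0.0304; 0.0528 to 0.122 without any library but 0 hpl replicate 3). The rises were vsx1, a bipolar cell transcription factor gene (0.61, adjusted p = 0.0421), and sncga, a synuclein gene (0.58, 0.0272), on the log2 scale. vsx1 was lost without any single library (0.0663 to 0.106) and sncga without any but 8 hpl replicate 2 (0.0623 to 0.125).

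No replication or mitosis gene on the lists rose by edgeR's test. Of 28 tested G1/S and replication genes 0 rose by edgeR's test, by an unadjusted p under 0.05 or with DESeq2. By edgeR's test 3 fell (10.7%, against 3.36% of all genes tested), and the median log2 fold change was −0.43. Of 25 G2/M genes 0 were called by edgeR or DESeq2, and 4 had an unadjusted p under 0.05, all lower. Their median log2 fold change was −0.21. It was below 0 for 23 of the 25 G2/M genes and 23 of the 28 G1/S genes, against 9501 of the 19035 genes tested. mcm5, for a subunit of the replicative helicase, had 14, 13.9 and 10.8 CPM at 0 hpl and 6.42, 5.73 and 2.48 CPM after the lesion (log2 fold change −1.37, adjusted p = 0.0177; 0.0775 without 0 hpl replicate 1 and 0.0633 without 0 hpl replicate 2). tyms, for thymidylate synthase, and e2f3, for a cell cycle transcription factor, fell by −1.53 and −0.84 on the log2 scale (adjusted p = 0.0314 and 0.0449). tyms held only without 16 hpl replicate 1 and e2f3 in no fit without a library. The list's number of falls was 0 without 0 hpl replicate 1 or 2, and 1 without 0 hpl replicate 3 or 16 hpl replicate 3. pcna, the replication clamp gene, had 234, 199 and 224 and 185, 188 and 161 CPM (adjusted p = 0.238), and the proliferation marker mki67 36, 43 and 25.3 and 30.01, 24.3 and 21 CPM (adjusted p = 0.218).

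Of 26 microglia and macrophage genes in the table, 10 passed the filter and 0 were called by edgeR or DESeq2 (1 at an unadjusted p under 0.05). mpeg1 had 2 counts over the 6 libraries, and a further gene named MPEG1 stood between 0.56 and 1.44 CPM. Of 8 neutrophil genes 5 passed, all 5 with a log2 fold change above 0, and 2 rose, against 4.55% of all genes tested: lyz, for lysozyme, from 0.515, 0.578 and 0.32 to 1.12, 3.15 and 3.6 CPM (adjusted p = 0.0231), and nccrp1 from 2.57, 2.94 and 3.04 to 5.46, 8.54 and 4.48 CPM (adjusted p = 0.048). The neutrophil count was 0 without any single 0 hpl library or 16 hpl replicate 1 and 1 without 16 hpl replicate 3. Summed microglia markers (mpeg1 and apoc1) ran from 6.05 to 8.53 CPM at 0 hpl and from 5.76 to 10.5 CPM in the per1b-high libraries. The endothelial marker cdh5 ran from 15.08 to 19.2 CPM and from 19.9 to 20.9 CPM, without overlap. The 7 pigment cell genes and 6 endothelial and blood genes tested gave 0 calls by edgeR. At an unadjusted p under 0.05 there were 1 and 3, and DESeq2 called 1 of each. All 6 endothelial and blood genes tested had a log2 fold change above 0, as did 9534 of the 19035 genes tested. For 3 of the 6 the per1b-high libraries lay above 0 hpl without overlap, against 14.1% of all genes tested. The part of these cell types in the immune gene results was not tested.

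**Figure D5:**
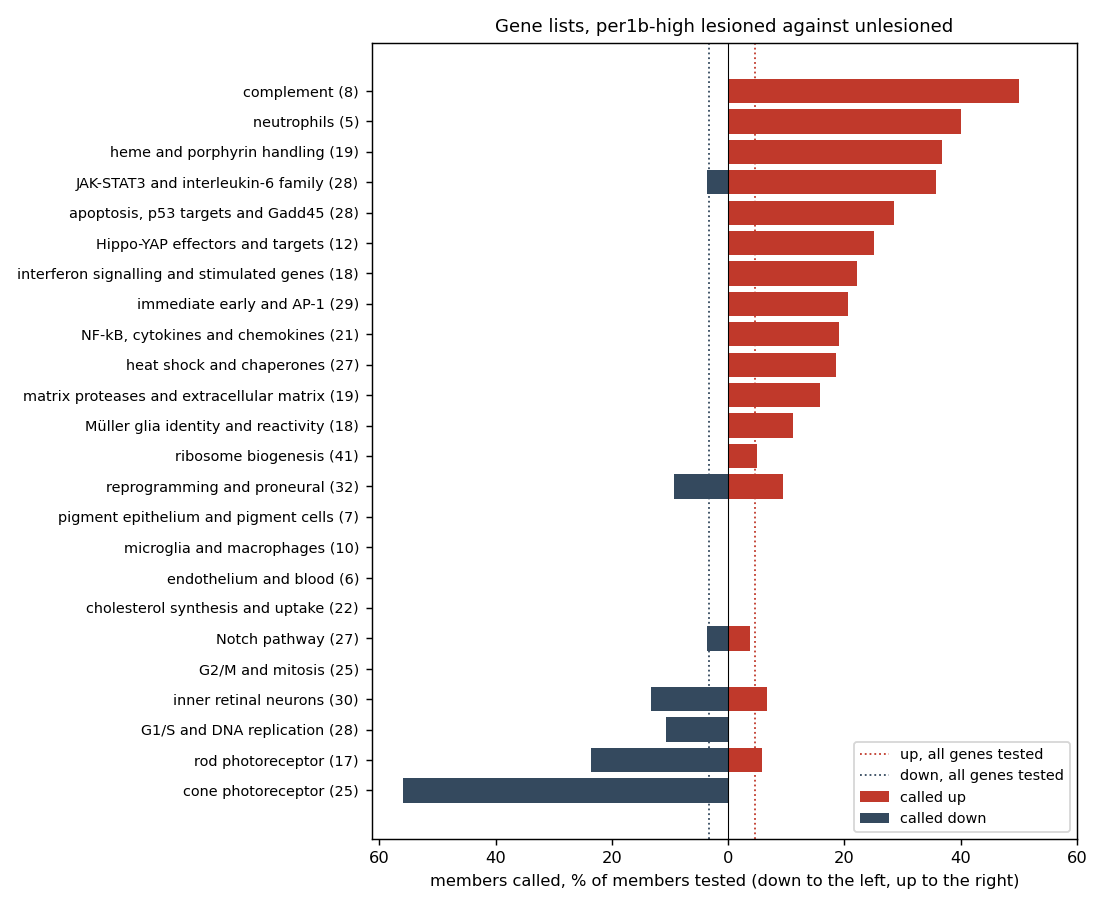
Share of each list's tested members called lower (left, dark bars) and higher (right, red bars) in the per1b-high libraries, with the number tested in brackets and the shares over all genes tested (3.36% and 4.55%) as dotted lines. Cone photoreceptor genes have the longest bar to the left, 14 of 25, and complement genes the longest to the right, 4 of 8.

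The per1b-high libraries differed among themselves with time after the lesion or with the library, which cannot be told apart with 1 library at 8 hpl. Of the 866 rises, 42 were more than 2-fold lower in 8 hpl replicate 2 than in both 16 hpl libraries and 14 more than 2-fold higher. Among all 9534 genes with a log2 fold change above 0, 239 and 199 were. stat3, irf9 and cxcl18b were of the former kind, and wdr76, pim3 and ptgs2b, with 73.3, 25.1 and 24.2 CPM, of the latter. Of the 640 falls, 3 and 1 differed by that much, against 142 and 146 of 9501 genes with a log2 fold change below 0.

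With all 6 lesioned libraries 9 cone genes fell, 7 JAK-STAT3 genes rose, 3 heme genes, 2 complement genes and 2 Gadd45 or p53 genes rose, and 0 AP-1 and 0 chaperone genes were called. Calls were fewer over all genes too, with 187 of 19875 genes tested higher and 161 lower in that fit. The lower group counts are thus not particular to these groups. For gnat2 the log2 fold change was then −2.33 (adjusted p = 0.00335), for C7 (2 of 2) 7.08 (0.00186) and for fam101b 3.69 (0.00105). Among the calls lost were those of deptor, coro2bb, FNDC4 (1 of 2), SUSD3 (2 of 2), fam46ab, arr3a, calb2b and nr2e3 (adjusted p from 0.119 to 0.926). Their log2 fold changes were nearer 0, such as −0.97 for deptor and 0.57 for nr2e3. A lost call did not always go with a smaller change. For atf3 the log2 fold change was 1.73 with all 6 lesioned libraries (adjusted p = 0.124) against 1.52 with the per1b-high ones, and the per1b-low libraries were all above 0 hpl, at 45.6, 45.1 and 244 CPM, but far apart. It was 1.65 against 0.77 for hspe1 (adjusted p = 0.0974), 5.41 against 2.39 for hspb11 (0.0941) and 1.81 against 1.19 for gadd45ga (0.0933). Among 111 called genes covered by the rule for named genes, 44 were called with all 6 lesioned libraries and 73 with log2 CPM of per1b as a covariate over all 9 libraries. Of all 1506 called genes 339 and 753 were. Named genes were picked in part for a small adjusted p.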

How the data were processed

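RNA was measured in sorted Müller glia of 9 libraries, 6 of which enter the comparison. The submitters' processing notes name RSEM 1.2.22, Bowtie2 2.2.6, edgeR 3.10.2, limma 3.24.15, cutadapt 1.4.2, Trim Galore 0.2.7 and FastQC 0.10.1 and the build Zv9, with no role or order. An annotation release was not given in the sources used here. The authors deposited RSEM expected counts per gene, not normalized, of which 21.7% to 28.3% per library were not whole. The deposited FPKM were used as given. The authors' deposited table of log2 fold changes and adjusted p-values, per the file headers, gives 8 and 16 hpl without naming the model, and was used for coro2bb only. That table paired 12581 genes with symbols, gene names given with the reference covered 9741 more, and 11415 had none.

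Expected counts were rounded and fitted with edgeR 4.0.16 in R 4.3.3 as lesioned or unlesioned. The settings were filterByExpr, TMM factors 0.874 to 1.056 and a robust quasi-likelihood F test, two-sided, with 4 residual degrees of freedom. The filter passes a gene that is high enough in the libraries of either group alone. A gene nearly silent at 0 hpl could thus be tested only where it rose, and group counts of rises include such genes. P-values were adjusted by Benjamini-Hochberg over all genes that passed the filter and called under 0.05. CPM in the text use TMM factors over the 9 libraries. The fit was tested on simulated data. Of 100 genes changed by 1 on the log2 scale it recovered 45, and of 100 changed by 2 it recovered 89, with 9 false calls. Standard errors were computed from the F statistic.

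The libraries, gene lists and tests were chosen with earlier results of these data known, and no list was given a p-value of its own. Genes were named by a rule: the 12 largest rises and falls past the threshold with a mean of at least 5 CPM, non-overlapping libraries and a symbol that is no clone name; up to 4 called members of each list with the smallest adjusted p; all clock and light genes detected, of which some are printed; and a set of genes named whatever their result, stat3, mvp, ascl1a, rho and mmp9 among them. Further called list members are named where a list's calls are given in full, and 1 called member of the interferon list is not reported here. Intervals and floors cover counting error only. Alternatives were DESeq2 1.42.0 size factors and Wald test, no filter, other groupings of the libraries, per1b as a covariate, a per1b threshold of 300 CPM, the replicate number as a block and leaving out each library. No sequences or coordinates are printed.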

Additional observations from a re-analysis of the deposited data

Results flagged for a closer look

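crtac1a, for a secreted matrix protein, also stood high in the lesioned libraries that the comparison does not use. The per1b-low libraries had 335, 354 and 79.1 CPM (8 hpl replicates 1 and 3 and 16 hpl replicate 2), so that even the lowest of them, 79.1 CPM, was above the highest unlesioned value of 2.52 CPM and the highest per1b-high value of 26.7 CPM. The difference between the per1b-low and per1b-high libraries is the rule that split them and was not tested.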

How the results depend on the processing

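The counts of genes called, higher and lower were 1506, 866 and 640. They stayed within 1.5 times these values with DESeq2 size factors, without a low-count filter, with the DESeq2 Wald test (2190 called) and with the 8 and 16 hpl libraries as separate groups. With all 9 libraries in 3 groups they were 713, 408 and 305. With all 6 lesioned libraries they were 348, 187 and 161, with a per1b threshold of 300 CPM 293, 193 and 100, and with per1b as a covariate 893, 480 and 413. Leaving out 1 library gave 722 to 1593 genes called, 416 to 904 higher and 306 to 689 lower. The fit with the replicate block called 1518 genes, 1338 of them shared with the fit without it. Whether the replicate numbers pair the libraries is not known. Deviations of same-numbered libraries from their group means correlated at 0.0879, 0.0102 and −0.0159, and those of other pairs at −0.0769 to 0.0581. With 3 libraries a group these values cannot exclude pairing.

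Among 111 called genes covered by the rule for named genes, 56 were called whichever library was left out. One direction reversed: with all 6 lesioned libraries the log2 fold change of sagb was 0.77 (adjusted p = 0.714). The cause of these shifts was not tested. With 3 libraries a group and 11714633 counts in the shallowest, a gene that was not called may still differ.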

Other observations

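Ribosome biogenesis genes, which were not described above, gave 2 rises and 0 falls among 41 tested by edgeR's test (9 and 0 at an unadjusted p under 0.05, 3 and 0 with DESeq2). The share called was 4.88%, near the 4.55% of all genes called higher, with a median log2 fold change of 0.19. gnl3, for the nucleolar protein nucleostemin, rose from 38.8, 34.7 and 39 to 52.1, 82.6 and 64.9 CPM (log2 fold change 0.83, adjusted p = 0.013; 0.0568 without 0 hpl replicate 1 and 0.0561 without 0 hpl replicate 2). npm1a, for nucleophosmin, rose from 35.4, 33.5 and 40.6 to 44.4, 89.5 and 69.4 CPM (adjusted p = 0.0309), and was called in only 1 of the 6 fits without a library. Without 8 hpl replicate 2, 5 members rose, without 0 hpl replicate 1 or 2 the number was 0, and without 0 hpl replicate 3 or either 16 hpl library it was 1. Of 22 cholesterol synthesis and uptake genes 0 were called by edgeR's test, 2 had an unadjusted p under 0.05 and DESeq2 called 1 rise and 1 fall.

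prnpa, a prion protein gene, stood at 143, 131 and 219.5 CPM at 0 hpl and 28.3, 78.4 and 90.2 CPM in the per1b-high libraries, without overlap. It was not called (log2 fold change −1.33, adjusted p = 0.143) but passed without 8 hpl replicate 2, the lowest library (log2 fold change −0.955, adjusted p = 0.0192).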
